A study of Mus musculus with 18 samples.

Results

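Short constitutive lamina blocks were defined as unbroken stretches of 50 kb up to under 500 kb on chromosomes 1 to 19 that lay, at 1 kb resolution, inside domains of all 4 deposited lists: ESC Lamin B, CM Lamin B, ESC H3K9me2 and CM H3K9me2. ESC are mouse embryonic stem cells and CM are cardiomyocytes differentiated from them. There were 678 such blocks among the 1084 stretches common to all 4 lists, beside 381 blocks of 500 kb or more (long blocks) and 25 stretches under 50 kb. The series asked by ChIP-seq how contacts with the nuclear lamina and the H3K9me2 mark change as mouse cells become cardiomyocytes. Wild-type ESC were grown in serum-free, feeder-free medium with LIF. Wild-type CM came from the same kind of culture through embryoid bodies, with Activin A, BMP4 and VEGF followed by VEGF, bFGF and XAV, and were collected on day 10. A second ESC line, derived from CMV-creERT; Hdac3f/f mice, carried floxed Hdac3 alleles (a histone deacetylase gene) and a tamoxifen-inducible Cre driven by the CMV promoter. It was used without tamoxifen or after 24 hours in 1 µg/ml tamoxifen to delete Hdac3.

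The nuclear lamina is a meshwork of lamins under the inner nuclear membrane, and Lamin B ChIP-seq recovers the chromatin that touches it. Lamina-associated domains are typically gene-poor, late-replicating and silent. Those held in every cell type are called constitutive, and those that attach or detach during differentiation are called facultative. H3K9me2, dimethylation of lysine 9 on histone H3, is deposited mainly by the methyltransferases G9a and GLP and is a typical mark of chromatin at the nuclear periphery. Sequence with both signals in both cell types is therefore the candidate constitutive peripheral chromatin of this series, and the short blocks are its smaller pieces.

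Each list was a single set of intervals with no value per library, so no replicate error, depth or test of cell type could be given, and every value below describes these lists. In the labels, 2 wild-type libraries point to each CM list, 4 to ESC H3K9me2 (2 wild-type and 2 floxed Hdac3) and 6 to ESC Lamin B (a further 2 after tamoxifen). How many of these libraries were pooled for an ESC list was not given in the sources used here. Domain edges lay on a grid of 9 kb in ESC Lamin B, 11 kb in CM Lamin B, 10 kb in ESC H3K9me2 and 20 kb in CM H3K9me2. The purity of the CM cultures was not analysed here.

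Short blocks made up most of the common stretches and little of the common sequence. They were 62.5% of the 1084 stretches and held 130.2 Mb, which was 14.2% of the 919 Mb common to all 4 lists and 5.45% of the autosomal span of 2391 Mb. The long blocks held 788 Mb, or 85.7%. Short blocks had a median length of 160 kb with quartiles of 100.0 and 260.0 kb, against a median of 1250 kb for the long ones. By length, 156 blocks were in the narrower class of 50 to under 100 kb, 265 were 100 to under 200 kb, 134 were 200 to under 300 kb, 61 were 300 to under 400 kb and 62 were 400 to under 500 kb. The last of these classes held 27.6 Mb, more than the 11.3 Mb of the shortest class.

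**Figure D1:**
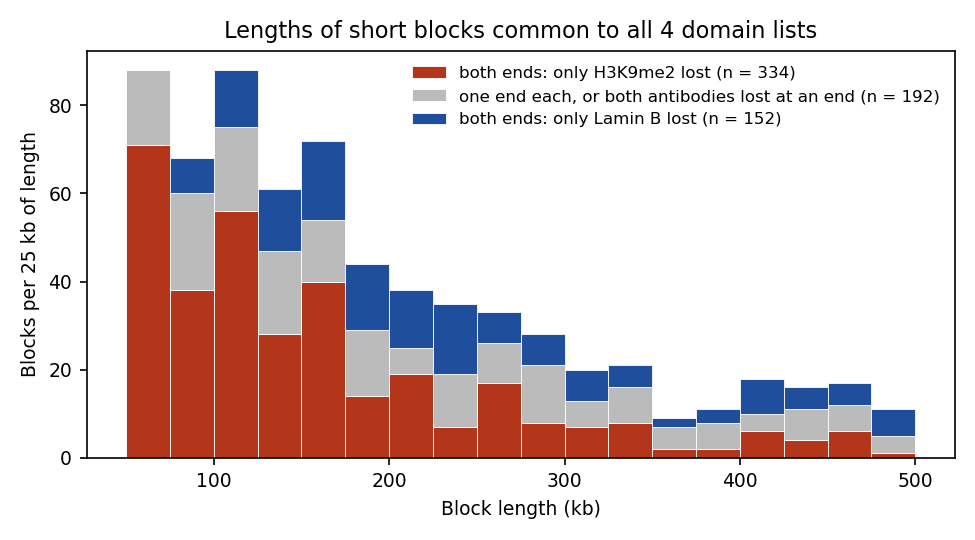
Lengths of the 678 short blocks in kb, in classes of 25 kb, with the count of blocks on the y axis. Colour shows whether H3K9me2 alone (334 blocks), Lamin B alone (152) or another combination (192) was lost at the ends, and the bars of blocks limited by Lamin B alone begin above 75 kb, the shortest such block being 81 kb.

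ESC H3K9me2 was the list that most often ended a short block. In the first kb past the 1356 ends, ESC H3K9me2 was lost at 794 (58.6%), ESC Lamin B at 318 (23.5%), CM Lamin B at 203 (15.0%) and CM H3K9me2 at 157 (11.6%). A single list was lost at 1247 ends (92.0%). That list was ESC H3K9me2 at 699 ends, ESC Lamin B at 293, CM Lamin B at 180 and CM H3K9me2 at 75. The most frequent joint loss was of H3K9me2 in both cell types, alone at 76 ends, while Lamin B was lost alone in both cell types at 14. Exact joint losses depend on the grids: edges on 10 and 20 kb grids can coincide more often than those on 9 and 11 kb. Within 20 kb past the end, a single list was lost at 804 ends (59.3%). In that window Lamin B was lost in both cell types at 299 ends and H3K9me2 in both at 261, with or without other lists. By cell type, 1000 ends (73.7%) came from ESC lists only, 255 (18.8%) from CM lists only and 101 (7.45%) from both. By antibody, 850 ends (62.7%) were losses of H3K9me2 only and 487 (35.9%) of Lamin B only.

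This order and the splits by cell type and antibody have to be read beside the number of edges each list had to offer. Both H3K9me2 lists had more edges than either Lamin B list. ESC H3K9me2 was the most divided list, with 47.6% of all autosomal domain edges, against 22.3% for CM H3K9me2, 16.2% for CM Lamin B and 13.9% for ESC Lamin B. Relative to those shares, ESC Lamin B and ESC H3K9me2 ended short blocks more often and CM H3K9me2 less often. Long blocks showed the same order of lists by another amount: ESC H3K9me2 was lost at 322 of their 762 ends (42.3%) and ESC Lamin B at 235 (30.8%). CM Lamin B was lost at 147 (19.3%) and CM H3K9me2 at 108 (14.2%). The short blocks were selected by length on these same lists, so the gap between 58.6% and 42.3% carries no test.

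**Figure D2:**
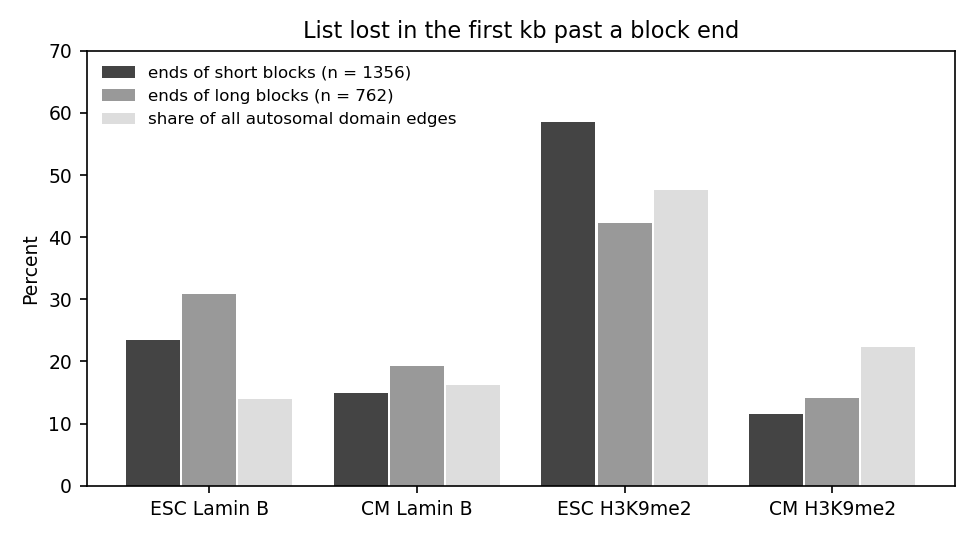
Percent of the 1356 ends of short blocks and of the 762 ends of long blocks at which each list was lost in the next kb, beside each list's share of all autosomal domain edges. ESC H3K9me2 stands at 58.6%, 42.3% and 47.6%, and joint losses are counted under each list lost.

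Within the short blocks, the limiting list changed with length. ESC H3K9me2 was lost at 79.8% of the ends of blocks under 100 kb, 58.9% at 100 to under 200 kb, 47.8% at 200 to under 300 kb, 46.7% at 300 to under 400 kb and 38.7% at 400 to under 500 kb. Over the same classes ESC Lamin B rose from 13.1% through 20.4%, 31.3% and 32.0% to 37.1% of ends. CM Lamin B went from 4.81% in the shortest class to 21.0% in the longest. Blocks of 500 kb to under 1 Mb had ESC H3K9me2 losses at 42.9% of ends and ESC Lamin B losses at 31.7%. The lists differ in how short their own domains are: 810 ESC H3K9me2 domains (33.3%) were under 100 kb, against 46 CM Lamin B (5.57%), 32 ESC Lamin B (4.52%) and 18 CM H3K9me2 domains (1.58%).

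Taking both ends of a block, 2 kinds of block stood at the extremes. At 248 blocks (36.6%) ESC H3K9me2 alone was lost at either end, so the block was exactly 1 ESC H3K9me2 domain while the other 3 lists ran on past both ends. These had a median of 120 kb and lay 30 kb (median) from other common sequence. Their Lamin B domains were long, with medians over blocks of 4041 kb in ESC and 4334 kb in CM. Their CM H3K9me2 domains had a median over blocks of 3020 kb. At 152 blocks (22.4%) both ends were losses of Lamin B only, in ESC, CM or both. These had a median of 212.5 kb and lay 246.5 kb from other common sequence, in Lamin B domains with medians of 256.5 kb in ESC and 319 kb in CM and in H3K9me2 domains of 505 and 790 kb. Both H3K9me2 lists thus ran past a Lamin B edge at these blocks. At the former, both Lamin B lists and CM H3K9me2 ran past ESC H3K9me2. Among the others, 173 blocks had H3K9me2 only at one end and Lamin B only at the other, and 90 of those paired ESC H3K9me2 with ESC Lamin B. Only 30 blocks had CM Lamin B at both ends, 60 had ESC Lamin B and 4 had CM H3K9me2.

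Past an end, ESC H3K9me2 usually returned soon and the other lists did not drop meanwhile. After the 699 ends lost by ESC H3K9me2 alone, the gap to its next domain had a median of 60 kb (quartiles 20 and 160 kb), and at 492 ends (70.4%) the other 3 lists covered the whole gap. The other lists behaved differently. ESC Lamin B gaps had a median of 580.5 kb and were covered by the other 3 lists at 39 of 293 ends (13.3%). For CM Lamin B the median was 484 kb, with 18 of 180 ends (10.0%) covered, and for CM H3K9me2 it was 160 kb, with 12 of 75 (16.0%).

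The 492 ends belonged to 324 separate ESC H3K9me2 gaps, because 168 gaps lay between 2 short blocks and 156 beside 1. The gaps had a median of 40 kb (quartiles 20 and 90 kb). A single 10 kb bin was missing in 66 of them (20.4%), less than the 20 kb bin of the CM H3K9me2 list, which cannot show a break of that size. In 177 gaps (54.6%) at least 40 kb was missing and in 78 (24.1%) at least 100 kb. With all lists on a common 20 kb grid, ESC H3K9me2 was lost at 58.0% of ends. ESC Lamin B was then lost at 42.8%, CM Lamin B at 28.7% and CM H3K9me2 at 21.9%. That grid was laid over domains already called, so it cannot show what calling on equal bins would give. The longest of the 324 gaps, named after its value was seen, was chr9:3860001-4540000 (mm9), 680 kb without an ESC H3K9me2 domain and with the other 3 lists throughout.

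Where ESC H3K9me2 ended a block and another list dropped before it returned, the next to drop was ESC Lamin B at 121 ends, CM H3K9me2 at 54 and CM Lamin B at 23. After ESC Lamin B, the next list was CM Lamin B at 117 of the 293 ends and ESC H3K9me2 at 97. After CM Lamin B it was ESC Lamin B at 98 of 180 ends. These counts are of lists lost next on their own, without joint losses. Allowing 20 kb past the end in place of 1 kb, Lamin B had been lost in both cell types at 299 ends (22.1%), H3K9me2 in both at 261 (19.2%) and all 4 lists at 140 (10.3%), where the border of the block was shared by all lists to within 20 kb.

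The coverage of each list with distance showed the same pattern. At 10 kb past the ends of short blocks, 83.8% were in CM H3K9me2, 74.8% in CM Lamin B, 63.2% in ESC Lamin B and 30.7% in ESC H3K9me2. At 100 kb ESC H3K9me2 covered 54.5% of ends and ESC Lamin B 57.2%, and all 4 lists covered 35.5%. Long blocks at 100 kb had ESC Lamin B at 39.9% of ends, ESC H3K9me2 at 44.7% and all 4 at 17.6%, so at that distance each list covered a larger share of short than of long block ends. Nearer the blocks ESC H3K9me2 showed the opposite, with 30.7% of short and 46.6% of long block ends covered at 10 kb and 33.0% against 41.1% at 20 kb. No domain of any list was present 100 kb past 17.2% of short and 27.0% of long block ends. Blocks near each other share these surroundings.

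**Figure D3:**
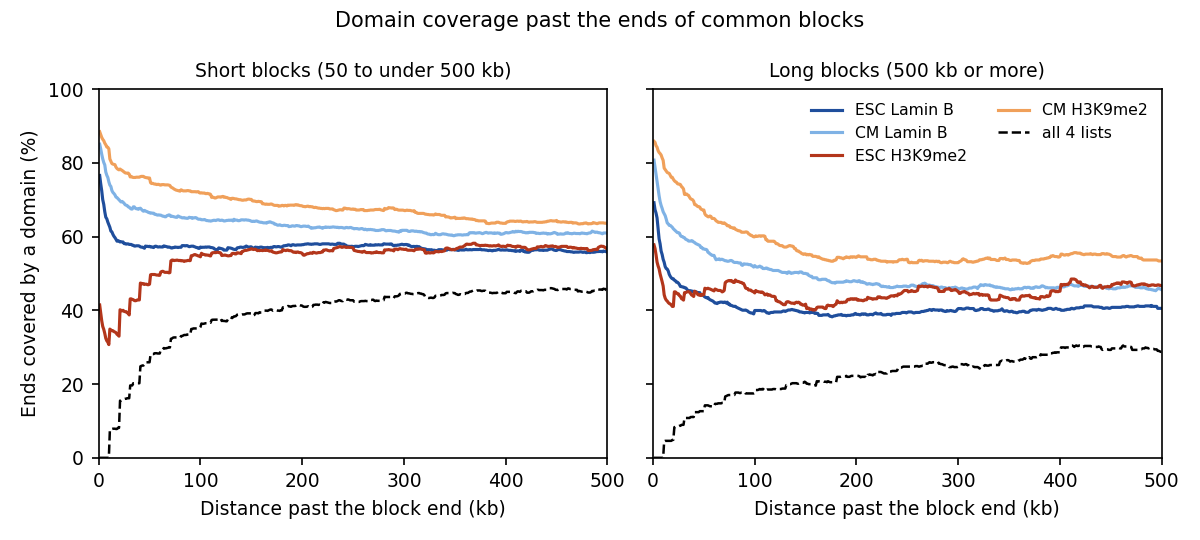
Percent of block ends (y axis) covered by a domain of each list, and by all 4, against the distance past the end in kb (x axis), for short blocks on the left and long blocks on the right. ESC H3K9me2 dips to 30.7% at 10 kb past short blocks and returns to 54.5% at 100 kb, while ESC Lamin B, CM Lamin B and CM H3K9me2 cover 57.2%, 64.7% and 71.8% there.

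Leaving out 1 list at a time measured how far the remaining 3 ran together around each block. Without ESC H3K9me2, 451 blocks (66.5%) lay in a longer stretch, 339 (50.0%) joined at least 1 other common stretch and 280 (41.3%) became part of a stretch of 500 kb or more. The median stretch was then 392 kb, in place of 160 kb, and 210 blocks lay in one of at least 1 Mb. Without ESC Lamin B the median was 170 kb, and 52 blocks (7.67%) reached 500 kb. Without CM Lamin B 14 blocks (2.06%) did, and without CM H3K9me2 6 (0.885%). Leaving out CM H3K9me2 left 607 blocks (89.5%) at exactly the same length. In all, 333 blocks (49.1%) stayed under 500 kb whichever list was left out, and 345 (50.9%) reached it for at least 1 list. Staying under 500 kb does not mean that the stretch kept its length. Of the 248 blocks with ESC H3K9me2 alone at both ends, 203 (81.9%) reached 500 kb without that list, and the median stretch around the 248 was 2717.5 kb. Several blocks can lie in 1 such stretch. The counts and medians are therefore over blocks and not over separate stretches, and a stretch with many blocks weighs more.

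**Figure D4:**
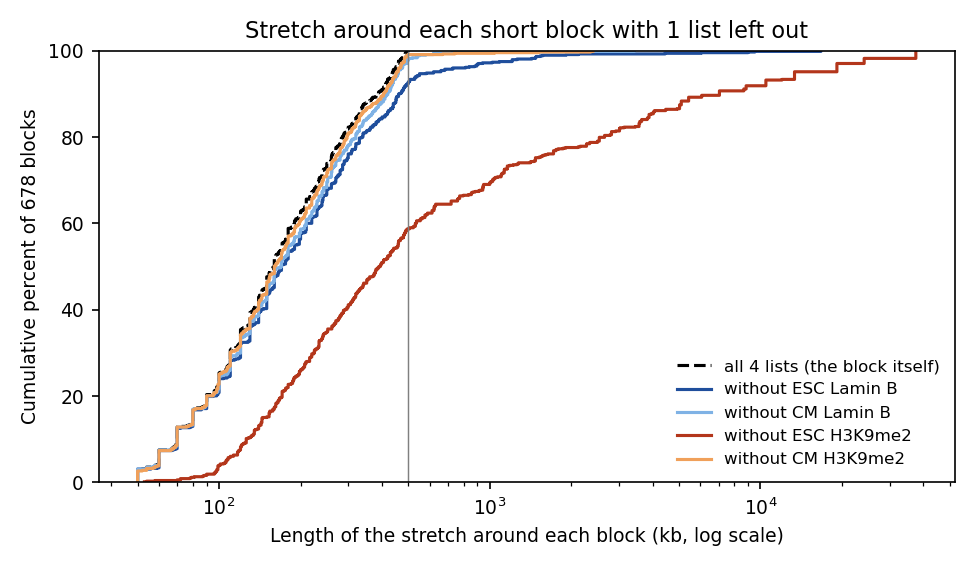
Cumulative percent of the 678 short blocks (y axis) by the length of the stretch around them in kb on a log axis, for all 4 lists and with each list left out. The curve without ESC H3K9me2 stands apart, with 41.3% of blocks at or beyond the grey line at 500 kb, against 7.67%, 2.06% and 0.885% for the other lists.

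With pairs of lists the same blocks looked unlike in the 2 cell types. The stretch around a block in both Lamin B lists had a median of 484 kb, and in both H3K9me2 lists of 195 kb. Lamin B and H3K9me2 of CM ran together over a median of 562 kb, and those of ESC over 172 kb. In 472 blocks (69.6%) the 2 ESC lists alone already fixed both ends, against 83 blocks (12.2%) for the 2 CM lists. The domain that contained the block was longer in CM than in ESC at 586 blocks (86.4%) for H3K9me2, and at least 2 times as long at 404 (59.6%). For Lamin B it was longer in CM at 446 (65.8%) and longer in ESC at 224 (33.0%). Median lengths of the containing domain were 612 kb in ESC Lamin B, 1050.5 kb in CM Lamin B, 210.0 kb in ESC H3K9me2 and 1020 kb in CM H3K9me2. Around long blocks they were 2340, 2673, 1470 and 2380 kb in the same order. Over all autosomal domains, each taken singly, the medians were 490.5, 407, 140 and 460 kb. The counts and medians around blocks instead took a domain or stretch again for each block in it. Those with several blocks therefore weighed more, and the medians around blocks and over all domains are weighted differently. The short blocks lay in 418 separate domains of ESC Lamin B, 404 of CM Lamin B, 648 of ESC H3K9me2 and 411 of CM H3K9me2. Under either weighting the median H3K9me2 domain was longer in CM than in ESC, so this was not particular to the short blocks.

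A short block filled most of its ESC H3K9me2 domain and little of the others. Its median share of the containing domain was 97.8% in ESC H3K9me2, 28.5% in ESC Lamin B, 19.1% in CM H3K9me2 and 17.9% in CM Lamin B. For long blocks these shares were 98.2%, 89.2%, 74.4% and 69.7% in the same order, so the ESC H3K9me2 share was alike in both. The ESC H3K9me2 domain was under 500 kb at 560 blocks (82.6%), whereas the ESC Lamin B domain was under 500 kb at 302 (44.5%) and the CM H3K9me2 domain at 200 (29.5%). None of the 678 blocks had domains of at least 1 Mb in all 4 lists. An ESC Lamin B domain that also held a long block contained 261 short blocks (38.5%), a CM Lamin B domain of that kind 315 (46.5%), and an ESC H3K9me2 domain 34 (5.01%). The authors' score of the containing domain stood at a median percentile within its own list of 59.4 for ESC Lamin B, 69.8 for CM Lamin B, 64.9 for ESC H3K9me2 and 71.0 for CM H3K9me2. Around long blocks these medians were 83.7, 86.5, 92.5 and 87.7, in the same order. The domains around long blocks were also longer, and the score was not adjusted for length. In these medians too, a domain with several blocks was taken again for each of them.

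Short blocks tended to lie close to other common sequence. The nearest common stretch of any length was at a median of 60 kb, within 100 kb of 424 blocks (62.5%) and within 1 Mb of 638 (94.1%). Long blocks lay at a median of 180 kb from other common sequence. A long block was within 100 kb of 147 short blocks (21.7%) and at a median of 460 kb. Grouping common stretches less than or equal to 100 kb apart into runs put 203 short blocks (29.9%) in a run with a long block and 221 (32.6%) in a run of shorter stretches only. The other 254 (37.5%) had no common sequence within 100 kb. Common sequence flanked 114 blocks on both sides within that distance and 310 on a single side.

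The run with the most short blocks, chosen after its values were seen, was chr3:3350001-7480000, near the centromeric end of chromosome 3. From low to high coordinates it held short blocks of 70, 70, 160 and 50 kb, a long block of 3250 kb and short blocks of 300 and 80 kb, separated by 10, 10, 30, 10, 20 and 70 kb. ESC Lamin B covered the run with 1 domain of 5103 kb, CM Lamin B with 1 of 5445 kb and CM H3K9me2 with 1 of 5500 kb, while ESC H3K9me2 had 7 domains. Every break in the run was a break in ESC H3K9me2 alone. The scores of the 6 short ESC H3K9me2 domains lay between 2.05 and 6.30, against 50.8 for the long one. Within this run the score rose with domain length, so these values do not compare the strength of the mark.

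A run made of short blocks only, also chosen after its values were seen, was chr19:39070001-40200000. Its 5 blocks of 130, 440, 70, 130 and 150 kb were separated by 30, 70, 90 and 20 kb. The surrounding lamina domain was nearly the same in both cell types, chr19:39069001-40257000 in ESC and chr19:39061001-40249000 in CM, 1188 kb each. CM H3K9me2 covered all 5 blocks as 1 domain of 1140 kb, and ESC H3K9me2 as 5 domains. At the far end both H3K9me2 lists stopped at 40200000 and the lamina ran on for 57 kb in ESC and 49 kb in CM.

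**Figure D5:**
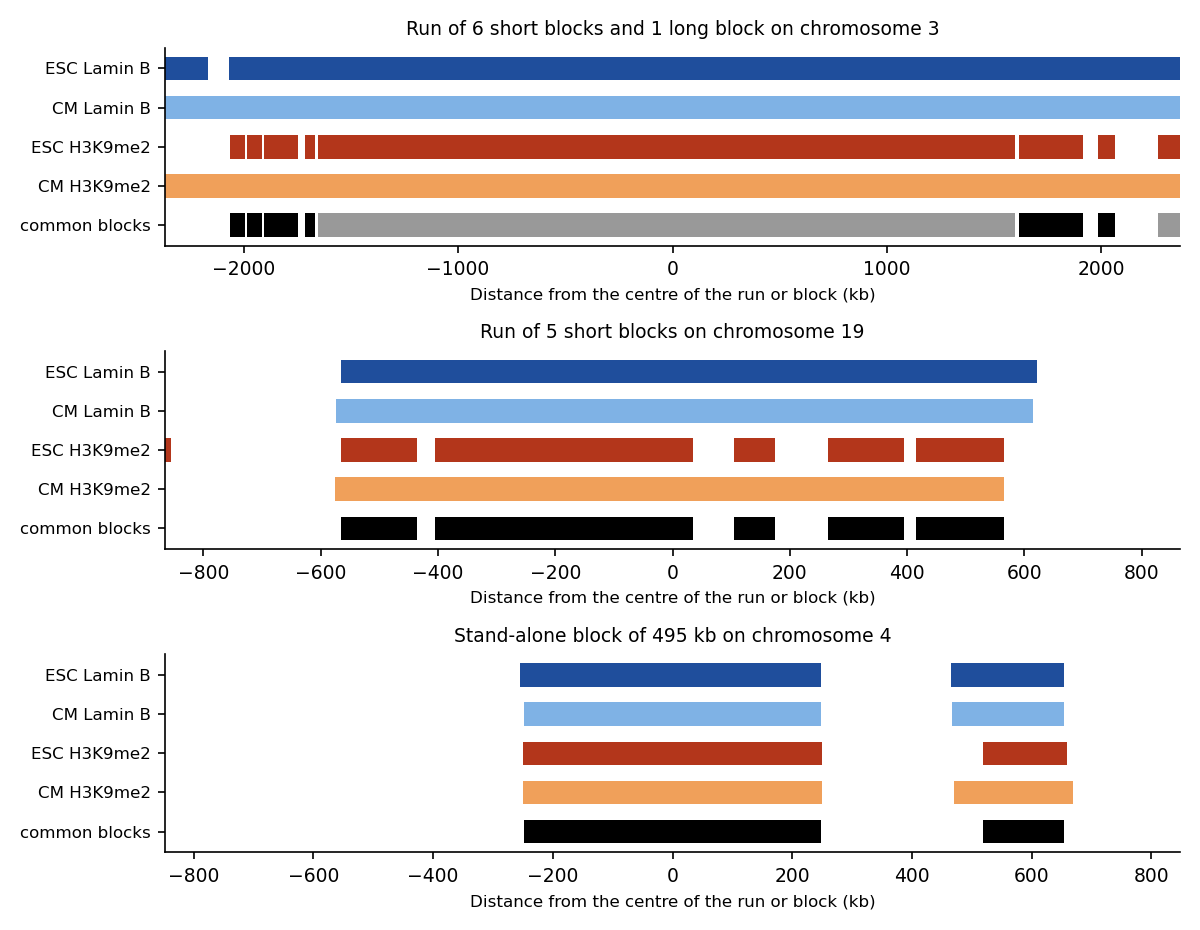
Domains of the 4 lists (coloured bars) and common blocks (black for short, grey for long) around 3 examples, with distance from the centre of the run or block in kb on the x axis. In the upper panels the ESC H3K9me2 bar is split into 7 and 5 pieces while CM H3K9me2 and Lamin B are unbroken along the run, and in the lowest panel all 4 domains of a 495 kb block end within 8 kb of each end of it.

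At 152 blocks (22.4%), called stand-alone here, each of the 4 containing domains held no other common stretch, and these stood at a median of 471 kb from other common sequence. They had a median length of 195.5 kb, in domains with medians of 243 kb in ESC Lamin B, 275 kb in CM Lamin B, 290.0 kb in ESC H3K9me2 and 390.0 kb in CM H3K9me2. The limiting list was spread more evenly here, with ESC Lamin B lost at 118 of 304 ends (38.8%), CM Lamin B at 95, ESC H3K9me2 at 87 (28.6%) and CM H3K9me2 at 43 (14.1%). The selection itself excludes ends at which the other 3 lists cover a gap up to further common sequence. Over all short blocks the other 3 lists covered the gap at 492 of the 699 ends lost by ESC H3K9me2 alone. The lower share of ESC H3K9me2 is therefore partly built into this class. All 4 lists ended within 20 kb at 84 of the 304 ends (27.6%), and 35 blocks (23.0%) had all their domain edges within 50 kb. The Lamin B domain was longer in CM at 89, longer in ESC at 60 and equal at 3, with a median difference, CM minus ESC, of 5 kb. That difference is below the 9 kb and 11 kb bins of the lists. For H3K9me2 the domain was longer in CM at 108, longer in ESC at 27 and equal at 17, with a median difference of 45 kb, or about the width of 2 CM bins.

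The clearest examples had nearly identical domains in all lists. At chr4:120923001-121418000, 495 kb and tied as the second longest short block, the domains were 504 kb in ESC Lamin B, 495 kb in CM Lamin B, and 500 kb in ESC and in CM H3K9me2. CM Lamin B set both of its ends, and no edge of another list lay more than 8 kb away. The other block of 495 kb, chr3:98433001-98928000, had ESC Lamin B at both ends and domains of 495, 506, 510 and 580 kb in ESC Lamin B, CM Lamin B, ESC H3K9me2 and CM H3K9me2. It was the longest of the stand-alone blocks, by position in the tie. At chr12:36225001-36459000, chosen after its values were seen as the stand-alone block with the closest edges, the domains were 234, 242, 240 and 240 kb in the same order.

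A single end of a short block was shared by all 4 lists to the kb. Edges on grids of 9, 11, 10 and 20 kb can coincide so exactly at few positions. Within 20 kb, all 4 lists ended together at 140 ends. The exact case was the left end of chr13:19800001-19998000, a 198 kb block that lay 1012 kb from the nearest common sequence. ESC Lamin B and ESC H3K9me2 spanned 198 and 200 kb there, and the CM domains ran further on the right, to 297 kb for Lamin B and 320 kb for H3K9me2. The longest of the 4 blocks with CM H3K9me2 at both ends, chr6:64700001-64900000 (200 kb), showed the reverse for Lamin B. ESC Lamin B covered it as part of a 13761 kb domain, whereas CM Lamin B was a piece of 231 kb, ESC H3K9me2 of 220 kb and CM H3K9me2 of 200 kb. The longest block with ESC H3K9me2 at both ends was chr10:28240001-28720000, 480 kb, within Lamin B domains of 11889 kb in ESC and 11968 kb in CM and a CM H3K9me2 domain of 3640 kb.

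Some blocks stood far from any other common sequence. The farthest was chr7:147519001-147851000 (332 kb), 15777 kb from the next on its left and with none on its right up to the end of the chromosome. Its domains were 432 kb in ESC Lamin B, 363 kb in CM Lamin B, 550 kb in ESC H3K9me2 and 580 kb in CM H3K9me2. Next came chr5:133661001-133903000 (242 kb, 6072 kb away), where H3K9me2 spanned 940 kb in ESC and 1260 kb in CM around Lamin B domains of 540 and 242 kb. The third was chr7:39195001-39340000 (145 kb, 5775 kb away), with domains of 153 and 275 kb for Lamin B in ESC and CM and 280 kb for H3K9me2 in each. At the other extreme, 95 blocks lay 10 kb from common sequence, 1 bin of the ESC H3K9me2 list. The first of these by position were chr1:5346001-5730000, chr1:5740001-5790000 and chr1:9290001-9450000, all in 1 ESC Lamin B domain of 4158 kb.

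Every autosome held short blocks, from 1.55 per 10 Mb of span on chromosome 8 (20 blocks) to 4.52 on chromosome 13 (53 blocks), with a median of 2.84. On chromosome 13 they made up 27.4% of the common sequence, against 7.23% on chromosome 8. The share of their ends lost by ESC H3K9me2 ran from 33.3% on chromosome 11 to 73.5% on chromosome 17, with a median of 58.7% over the 19 chromosomes. Along the span, the fifth with the lowest coordinates, where the centromere of mouse chromosomes lies, held 197 short blocks (29.1%) and 94 long blocks (24.7%). The fifth with the highest coordinates held 111 (16.4%) and 58 (15.2%).

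Common stretches lay just inside and just outside both limits of length. The 3 longest members were chr10:11570001-12069000 at 499 kb, limited by ESC H3K9me2 on the left and ESC Lamin B on the right, and the 2 blocks of 495 kb above. Just outside were chr11:28520001-29020000 and chr15:5330001-5830000 at 500 kb and chr19:15114001-15615000 at 501 kb. At the lower limit 21 blocks were exactly 50 kb, 16 of them with ESC H3K9me2 alone at both ends. The first 3 by position were chr1:5740001-5790000, chr2:64810001-64860000 and chr3:3700001-3750000, which lay in ESC Lamin B domains of 4158, 6309 and 5103 kb. Just below were chr11:9162001-9210000 at 48 kb and chr9:25416001-25460000 and chr13:6786001-6830000 at 44 kb, each running from an ESC Lamin B edge to an ESC H3K9me2 edge.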

How the data were processed

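The series holds 18 mouse ChIP-seq libraries of Lamin B and H3K9me2. STAR, Picard, deepTools and the mm9 build are named, without versions, per the submitters' processing notes. Domains carry the settings g 10, automatic bins and fdr 5 per the file headers. The program that called them was not given in the sources used here. A row of a deposited list has a domain's start, its end and a score, the authors' own value per domain on an unstated scale, used here only for ranks and filters within a list. Depth per sample is unknown and p-values were not computed.

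Domains were placed on a 1 kb grid in Python 3.11.15 (pandas 2.3.3, numpy 2.4.6), and stretches inside all lists were kept at 50 kb to under 500 kb. An end was assigned to every list without a domain in the next kb. Chromosome span means the distance between the outermost domain edges of any list. The functions were tested on simulated data. Figures used matplotlib 3.10.9. The blocks, lists and comparisons were chosen with earlier results of these data known. Named regions follow a fixed rule (the extremes of length and of distance, the longest block for each limiting list, and the first members inside and outside the limits), except where said. The gene and sequence tables supplied were of another build, so genes and sequences were not used here. Groups were taken from the sample titles. Alternatives covered scores, gaps, grid, edges, length limits and the X chromosome.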

Additional observations from a re-analysis of the deposited data

How the results depend on the processing

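ESC H3K9me2 was the list most often lost in all 7 alternatives of the shares of ends. Leaving it out gave the highest share of blocks in a stretch of at least the maximum length in all 4 alternatives of that measure. The amounts moved. With only the higher-scoring domains of each list (from its median score up) there were 180 blocks of 48.8 Mb in all. Filling gaps under 50 kb gave 433 blocks, and a maximum of 1 Mb gave 240.2 Mb. ESC Lamin B, lost at 23.5% of ends, was lost at 42.0% within 20 kb, 15.6% under the score filter, 32.7% with gaps filled, 42.8% on the 20 kb grid, 26.5% above 100 kb and 34.4% with domains extended by 1 bin. CM Lamin B (15.0%) gave 30.6%, 7.22%, 18.4%, 28.7% and 18.0% under the first 5 of these. ESC H3K9me2 (58.6%) gave 76.5% within 20 kb, 74.4% under the score filter, 43.9% with gaps filled, 52.2% above 100 kb, 55.6% up to 1 Mb and 52.8% with extended domains. CM H3K9me2 (11.6%) gave 22.0% within 20 kb, 21.9% on the 20 kb grid and 4.03% with extended domains. With a 1 Mb maximum, 30.3% of blocks reached 1 Mb without ESC H3K9me2, 4.08% without ESC Lamin B and 0.480% without CM Lamin B. With gaps filled the shares reaching 500 kb were 28.9%, 12.7% and 3.46%. Without ESC H3K9me2 the share was 76.7% under the score filter and 34.1% on the 20 kb grid, and without CM H3K9me2 it was 0% under the score filter. The median distance to common sequence was 157 kb with gaps filled and 460 kb to a long block. The 20 kb window can by construction only raise the share of ends at which a list is lost. Length limits change which blocks are counted, and filled gaps merge domains before the blocks are formed. The cause of the shifts under the settings other than that window was not tested. No paired analysis was possible because the lists carry no value per library, which also prevents leaving out a replicate. The planned gene lists were left out for want of an annotation of the files' build here.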

Other observations

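The X chromosome, outside the autosomal blocks described above, held 93 stretches of 50 kb to under 500 kb common to all 4 lists, or 5.69 per 10 Mb of span, above the 4.52 of chromosome 13, the highest autosome. They came to 17.3 Mb with a median of 150 kb, beside 31 long blocks. ESC H3K9me2 was lost at 128 of their 186 ends (68.8%), ESC Lamin B at 33 (17.7%), CM H3K9me2 at 23 (12.4%) and CM Lamin B at 12 (6.45%). CM Lamin B thus ended 6.45% of the X blocks' ends and 15.0% of the autosomal ones, a difference that was not tested. The Y chromosome, with a span of 2.90 Mb, held 4 such stretches.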
